A study of Mus musculus with 2 samples.

Results

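The barcodes described here carried melanocytic RNA in the second of 2 deposited droplet single-cell RNA runs, called run 2. They were chosen as barcodes with at least 1 unique molecular identifier (UMI, a tag that marks 1 captured RNA molecule) of at least 3 of 6 pigment-cell genes. The 6 genes were Dct, Pmel, Mlana, Tyrp1, Tyr and Slc45a2. The rule took 301 of the 20568 barcodes of run 2, of 43965 in the series, with 274 from the PEP-WT library and 27 from the PEP-619WW library. In 203 of the 301 immune-gene UMIs were as many as or more than pigment-gene UMIs, so the members as a whole are not called melanocytic cells. Run 1 held 0 such barcodes among 23397, which allows a share of up to 0.0128%.

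The series compared mice carrying the wild type allele of Ptpn22, which encodes the phosphatase PEP, with mice carrying its autoimmunity-associated allele on both chromosomes (PEP-619WW), both infected with the chronic lymphocytic choriomeningitis virus strain LCMV-cl13. Live CD45+ cells were sorted 8 days after infection and 4 to 5 mice were pooled per genotype, so that each run held 1 library per genotype. No difference between genotypes was therefore tested, and the exact 95% intervals given below covered counting error only. The labels of both samples named liver as the tissue, a Jurkat cell line and tumor infiltrating cells, whereas the protocol text and the study's methods named splenocytes. The barcode numbers and median genes per barcode of run 2 were those that the study's methods give for its spleen sort. That match is of numbers only, the labels conflict with it, and the tissue of run 2 was not settled. By marker UMIs, 4758 of 9539 PEP-WT barcodes were taken as macrophages and 42 as T or NK cells. In PEP-619WW these were 1720 and 1822. CD45, encoded by Ptprc, marks blood-derived cells, so a melanocytic cell is outside the gate as labelled. The 2 libraries of run 2 held 9539 and 11029 barcodes with medians of 4837 and 3611 UMIs and of 1709 and 1477 genes, they shared 31 barcode sequences, and none of those was a member.

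Melanocytic cells arise from the neural crest and make melanin inside melanosomes, which are organelles related to lysosomes. Tyrosinase (Tyr) starts melanin synthesis, Tyrp1 and Dct act on the intermediates, Pmel forms the fibrils on which pigment is laid down, Mlana is a melanosomal membrane protein and Slc45a2 is a transporter that affects melanosomal pH. Mitf drives most of these genes, with Sox10 and Pax3 acting on Mitf itself. Macrophages can take up melanosomes and cell debris, and for that reason UMIs of Ptprc, C1qa (a complement chain of tissue macrophages) and Lyz2 (lysozyme of myeloid cells) were counted in each member.

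RefSeq promoter windows were at hand for 3 of the 6 genes, Dct, Tyrp1 and Tyr, and each held 1 match to TCATGTGCT, the motif known as the M-box that Mitf can bind. The stretches around the match are shown because the 3 genes were counted together in the members. They read 5′ to 3′ on the gene's own strand, with the match in capitals, and come from GRCm38.p6.
Dct, chr14:118052379-118052407, minus strand: gcacttagggTCATGTGCTaacaaagagg
Tyrp1, chr4:80834156-80834184, plus strand: ggggagggagTCATGTGCTgcctagtagt
Tyr, chr7:87493516-87493544, minus strand: aaaaagttagTCATGTGCTttgcagaaga
The match began 151, 47 and 22 bases before the start in the RefSeq annotation in Dct, Tyrp1 and Tyr. Among all 32851 windows of 250 bases before a start, 110 held TCATGTGCT on either strand, or 0.335%. The shorter CATGTG, which lies inside TCATGTGCT, was in 12.3% of the windows. CACGTG was in 6.02% of all windows and in 0 of the 3. The motif was picked as one already tied to Mitf and the genes it drives, so matches in the 3 were not independent of that choice. The shares over all windows are therefore no test of enrichment. A match is a description of the letters and not evidence of binding. Windows of Pmel, Mlana and Slc45a2 were not used here.

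The 6 genes lie on 6 chromosomes in GRCm38, the build of the gene table. Dct spans chr14:118012790-118052244, Tyr chr7:87424771-87493512, Tyrp1 chr4:80834123-80851719, Pmel chr10:128704195-128720238, Mlana chr19:29697824-29708634 and Slc45a2 chr15:11000721-11029233. These spans come from GENCODE, whose Tyrp1 begins upstream of the RefSeq start, so that the Tyrp1 stretch printed above lies inside the GENCODE span.

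The 301 members fell into barcodes dominated by pigment genes and barcodes dominated by immune genes. A member was called pigment-dominant where its UMIs of the 6 genes outnumbered its summed UMIs of Ptprc, C1qa and Lyz2, and immune-dominant otherwise. Of the PEP-WT members, 91 of 274 were pigment-dominant, or 33.2% (exact 95% interval 27.7 to 39.1). Of the PEP-619WW members, 7 of 27 were, or 25.9% (11.1 to 46.3). As a share of all barcodes, pigment-dominant members made up 0.954% (0.769 to 1.17) of the PEP-WT library and 0.0635% (0.0255 to 0.131) of the PEP-619WW library. These intervals do not overlap, but a single pool of mice per genotype and the conflicting tissue labels leave genotype, pool and library impossible to tell apart.

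**Figure D1:**
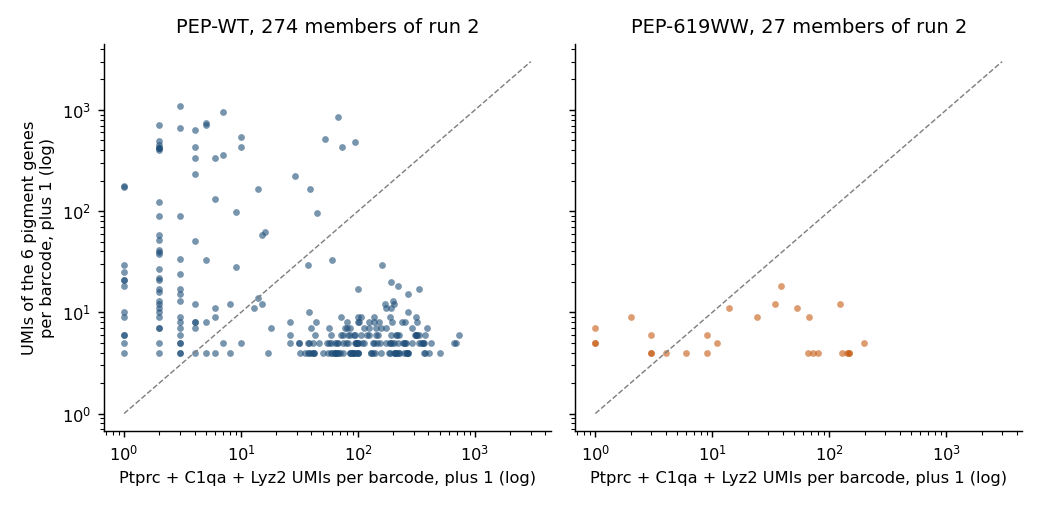
Each point is 1 member barcode of run 2, with UMIs of Ptprc, C1qa and Lyz2 summed on the x axis and UMIs of the 6 pigment genes on the y axis, both plus 1 on log scales, and the dashed line marks equal counts. The PEP-WT library has 91 members above the line, reaching 1083 pigment-gene UMIs, and the PEP-619WW library has 7, reaching 8.

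Most immune-dominant members sat at the edge of the rule. The 183 of the PEP-WT library had a median of 4 UMIs of the 6 genes (3 to 32) beside a median of 107 UMIs of Ptprc, C1qa and Lyz2 (3 to 725). Their median depth was 14708 UMIs, above the 7921 of PEP-WT macrophages, which were defined as run 2 barcodes with a UMI of each of the 3 immune genes and none of the 6. With every barcode thinned to 1000 UMIs and shallower ones left out, 54 PEP-WT barcodes and 1 PEP-619WW barcode met the rule. Those left out held 11 of the 91 pigment-dominant barcodes of PEP-WT and 3 of the 7 of PEP-619WW. The 20 immune-dominant members of the PEP-619WW library were alike, with a median of 3.5 UMIs of the 6 genes and 58.5 of the immune genes.

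The number of detected genes separated the PEP-WT members by amount. Just inside the rule, 166 barcodes had exactly 3 genes, with a median of 4 UMIs of the 6 genes (3 to 17), and 22 of them were pigment-dominant. Just outside it, 555 barcodes had 2 genes, with a median of 2 UMIs (2 to 10). At the other end, 42 barcodes had all 6 genes, with a median of 346 UMIs, and 40 of them were pigment-dominant. The PEP-619WW library had no barcode with all 6 genes, 2 with 5 genes, 5 with 4 genes and 20 with 3 genes.

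Melanocytic genes outside the rule were detected in many of the pigment-dominant PEP-WT barcodes. Mitf, the lineage's main transcription factor, was detected in 57 of the 91 pigment-dominant PEP-WT barcodes. Sox10 and Pax3, neural crest factors that act above it, were detected in 46 and 50. Slc24a5, a melanosomal ion exchanger, was detected in 54 and Trpm1, a cation channel first known from melanocytes, in 53. Of the immune genes, Ptprc, the gene of the sorted CD45, was detected in 15 of the 91, C1qa in 42 and Lyz2 in 64. At least 1 of Mitf, Sox10 and Pax3 was found in 69 of the 91 barcodes, and all 3 together in 33. Not every one of the 91 had such support, and 22 had none of the 3. Mitf had 1574 UMIs in the macrophages of run 2, against 16 of Sox10 and 37 of Pax3. A Mitf UMI alone is therefore less particular to melanocytic cells. Genes of other cells were found as well, with S100a9, a neutrophil gene, in 12 of the 91 and up to 85 UMIs, and Ccr7, a gene of migrating dendritic cells, in 2 and up to 13 UMIs.
In the 7 PEP-619WW barcodes Mitf, Sox10, Pax3, Slc24a5 and Mlph were at 0 UMIs in 26092 UMIs in all, and Trpm1 had 1. These 7 had 8, 6, 5, 4, 4, 3 and 3 UMIs of the 6 genes, and 3 of them had a mitochondrial share above 20%. The deepest, with 16388 UMIs, carried 56 UMIs of Cd74 and 21 of Ccr7, and the next, with 3922 UMIs, carried 42 and 9. A pair of the other barcodes carried 33 and 12 UMIs of S100a9. The 3 shallowest, at 906, 805 and 700 UMIs, had 0.552, 0.745 and 0.571% of their UMIs from the 6 genes, and 1 of them had 2 UMIs of Ptgds and 1 of Sparc, genes described below. At the depths of these 3, 0 UMIs of Mitf does not settle the label. The deepest of the 7 lay above the median of 5856 UMIs of the pigment-dominant PEP-WT barcodes. It had 0.0488% of its UMIs from the 6 genes, and both it and the next had 0 UMIs of Ptgds and Sparc. The 7 are called pigment-dominant by the rule only and are not called melanocytic, with the cell type not determined.

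The barcodes with the most melanocytic RNA were the 40 pigment-dominant PEP-WT barcodes with all 6 genes, a requirement that favours deep barcodes. At least 1 of Mitf, Sox10 and Pax3 was found in 39 of them and all 3 in 28. Their depth was 1217, 30725 and 86272 UMIs (lowest, median and highest), with a median of 5287 genes, against library medians of 4837 UMIs and 1709 genes. UMIs of the 6 genes took 0.192, 1.18 and 3.22% of each barcode's total. Their mitochondrial share had a median of 3.76% and reached 17.7%. Ptprc, C1qa and Lyz2 together had a median of 3 UMIs, with at most 10 in 31 barcodes and more than 30 in 6. Doublets were not called, and whether barcodes with many immune UMIs held 2 cells was not tested.

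**Figure D2:**
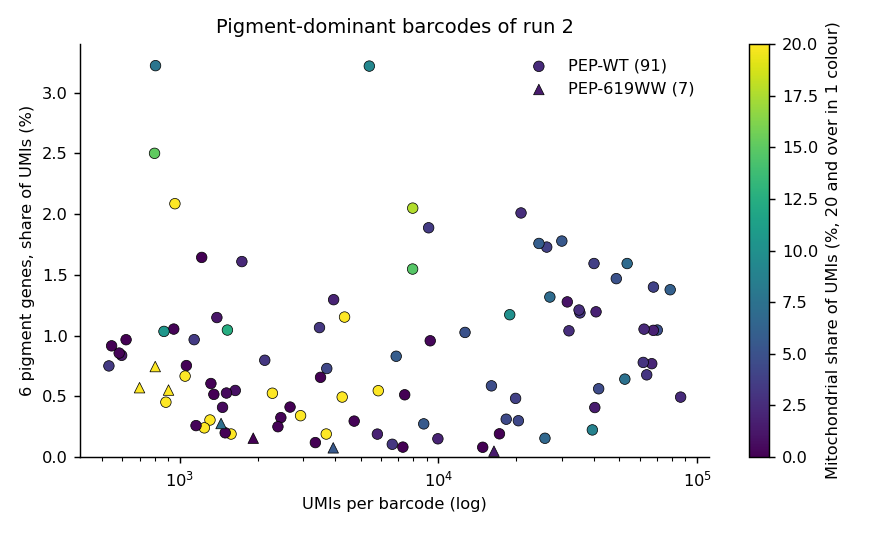
Each point is 1 pigment-dominant barcode of run 2, with its UMIs on a log x axis, the share of them from the 6 pigment genes on the y axis, and its mitochondrial share as colour; circles are PEP-WT and triangles PEP-619WW. The 28 PEP-WT barcodes over 20000 UMIs include 26 of the 40 with all 6 genes.

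The pigment-dominant PEP-WT barcodes spanned a wide range of quality. Of the 91, 34 had under 3000 UMIs, 29 had 3000 to 20000 and 28 had more than 20000. The share of UMIs from the 6 genes was 0.731% in the shallowest band, 0.713% in the middle band and 1.04% in the deepest. The immune genes Ptprc, C1qa and Lyz2 were at 995, 741 and 294 CPM (UMIs of a gene scaled to a fixed total, the same for every set of barcodes). In 12 barcodes the mitochondrial share passed 20%, where the 6 genes took 0.570% of UMIs, and in 24 it was under 1%, where they took 0.380%. The nuclear RNA Malat1 was at 23375 CPM in the first of these sets and 1366 CPM in the second, against 5530 CPM in the 55 barcodes between. RNA quality and pigment-gene level thus differed across these sets, and the part of the one in the other was not tested.

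Dct led the 6 genes in UMIs. These are 3′ counts, taken near the end of the transcript and not scaled by length. In the 40 barcodes Dct had 10, 155 and 566 UMIs per barcode (lowest, median and highest) and was the top gene of the 6 in 39. Pmel had 1, 59 and 199 and was the top gene in the remaining barcode. Mlana had 1, 41 and 216 UMIs and Tyrp1 had 1, 30.5 and 141.
Tyr, the enzyme that starts the pathway, was scarcer at 1, 11.5 and 50 UMIs. Slc45a2 was the scarcest at 1, 8 and 32. Within single barcodes the Dct share of the 6 genes ran from 28.1 to 73.8% with a median of 49.5%, and the Pmel share from 2.63 to 43.9% with a median of 17.0%. The make-up of pigment RNA therefore varied from barcode to barcode even where all 6 genes were present.

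The same genes were found at low level across run 2 outside the pigment-dominant barcodes. In the PEP-WT library 77.3% of all UMIs of the 6 genes were in the 91 pigment-dominant barcodes, and in the PEP-619WW library 3.70% were in its 7. Dct made up 48.5% (47.7 to 49.3) of these UMIs in the pigment-dominant PEP-WT barcodes and 42.5% (41.1 to 44.0) in the other 9448 PEP-WT barcodes. In the other 11022 PEP-619WW barcodes its share was 42.7% (39.4 to 46.1). Pmel was likewise highest in the pigment-dominant PEP-WT barcodes, at 17.9% (17.3 to 18.5). It was 14.1% (13.1 to 15.2) in the other PEP-WT barcodes and 14.8% (12.5 to 17.3) in the other PEP-619WW barcodes. Mlana and Tyrp1 were lowest in the pigment-dominant PEP-WT barcodes. Mlana was 14.1% (13.6 to 14.7) in the pigment-dominant PEP-WT barcodes, 19.3% (18.2 to 20.5) in the other PEP-WT barcodes and 17.6% (15.1 to 20.3) in the other PEP-619WW barcodes. Tyrp1 was 12.6%, 17.6% and 17.8% in the same order. The sets were formed from UMIs of these genes and UMIs of a barcode are not independent, so the intervals understate the spread and the contrast between the sets is a description. Outside the pigment-dominant barcodes the make-up in the 2 libraries was close, with overlapping intervals for Dct, Mlana and Tyrp1.

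**Figure D3:**
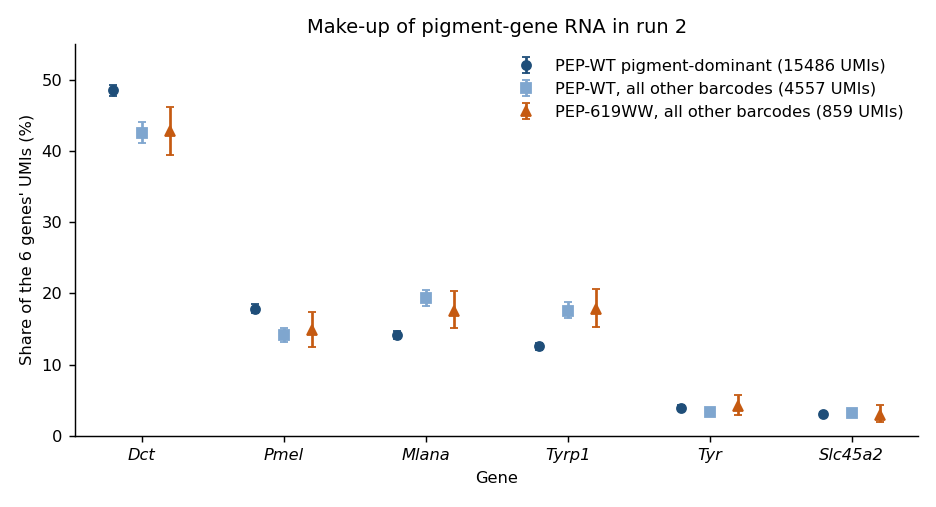
The x axis lists the 6 genes and the y axis gives each gene's share of the UMIs of all 6, in percent; bars are exact 95% binomial intervals and colours mark the pigment-dominant PEP-WT barcodes (15486 UMIs) and all other barcodes of each library (4557 and 859 UMIs). Dct takes 48.5, 42.5 and 42.7% in the 3 sets, which were formed from UMIs of these genes.

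Pigment RNA outside the pigment-dominant barcodes was at a higher level in the PEP-WT library, a comparison of 2 single libraries. There the 6 genes summed to 66.1 CPM (64.2 to 68.1) in PEP-WT and 15.5 CPM (14.5 to 16.6) in PEP-619WW. Barcodes of each cell type were taken by a gate on marker UMIs. In PEP-WT the macrophage gate held 60.5 CPM (58.4 to 62.6), the neutrophil gate 58.8 CPM (36.4 to 89.9) and the T and NK gate, with only 42 barcodes, 24.5 CPM (7.97 to 57.3). The PEP-WT dendritic gate, with 59 barcodes, held 41.6 CPM (25.1 to 65.0). In PEP-619WW the macrophage gate held 23.2 CPM (20.8 to 25.8) and the T and NK gate, a type that should lack these genes, 4.92 CPM (3.62 to 6.54). Of other types that should lack them, neutrophils were at 14.6 CPM (10.2 to 20.4), dendritic cells at 8.15 CPM (6.01 to 10.8) and B cells at 14.2 CPM (8.92 to 21.5), with 10 of the 22 B cell UMIs in 1 barcode. Barcodes in no gate were at 86.0 CPM (81.5 to 90.6) in PEP-WT, above its macrophages, and at 17.2 CPM in PEP-619WW.
With each barcode thinned to 1000 UMIs, the share with a UMI of the 6 genes was 7.14% (6.42 to 7.92) in PEP-WT macrophages and 5.41% (0.661 to 18.2) in PEP-WT T and NK cells, so that the 2 were not told apart. In PEP-619WW the shares were 2.25% (1.60 to 3.08) and 0.466% (0.202 to 0.917), and the intervals did not overlap, while neutrophils at 1.70% (0.853 to 3.03) overlapped with macrophages, and B cells at 0.347% and dendritic cells at 0.536% were near T and NK cells. Thinned PEP-WT neutrophils were at 7.59% (3.85 to 13.2) and PEP-WT dendritic cells at 1.69% (0.0429 to 9.09). Barcodes under 1000 UMIs were left out of these shares, among them 48 of 193 neutrophils and 82 of 4758 macrophages in PEP-WT. Unthinned, macrophages and T and NK cells were at 36.8 and 9.52% in PEP-WT and 12.7 and 1.81% in PEP-619WW, at median depths of 9249.5, 2837.5, 7283.5 and 3090.5 UMIs. Free RNA in the droplets and RNA taken up by macrophages were not tested apart.

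Genes outside the rule were also counted across the sets of barcodes. A further set of 30 genes, those with the largest PEP-WT ratios of pigment-dominant barcodes over macrophages, was summed and was chosen after the values were seen. They reached 6737 CPM (6610 to 6866) in pigment-dominant PEP-WT barcodes and 165 CPM (151 to 180) in immune-dominant ones. In PEP-WT macrophages with 1 or 2 of the 6 genes they were at 60.7 CPM (57.4 to 64.2) and in those with none at 32.2 CPM (30.1 to 34.4). The 6 genes themselves were at 9758, 320 and 111 CPM over the first 3 sets. The ends of both orders were fixed by how the genes and the sets were chosen, so that they are a description only. In PEP-619WW the 30 genes stood at 498 CPM (265 to 852), 320 CPM (248 to 408), 52.2 CPM (43.3 to 62.3) and 17.4 CPM (15.1 to 19.9).

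**Figure D4:**
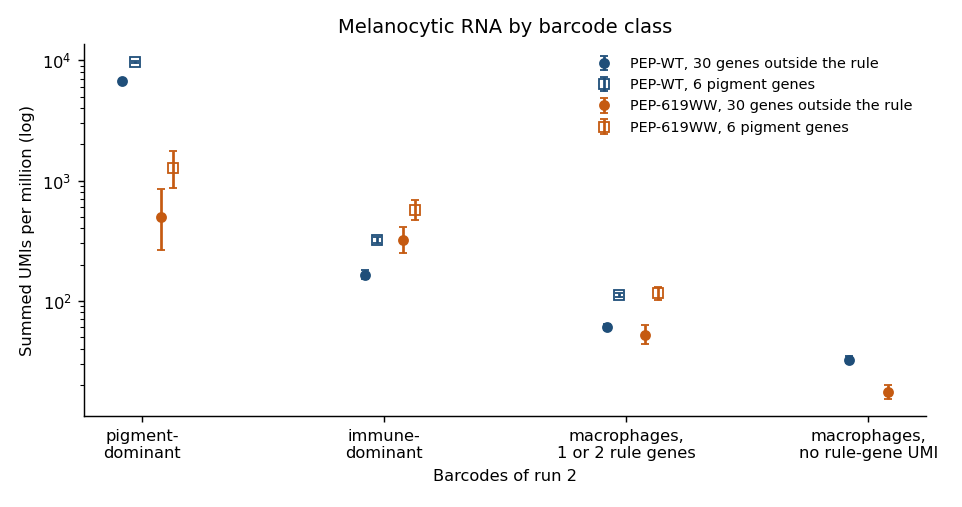
The x axis lists 4 sets of run 2 barcodes and the log y axis gives summed CPM of the 30 genes outside the rule (filled circles) and of the 6 pigment genes (open squares), with exact 95% Poisson intervals and colour by library. In PEP-WT the 30 genes descend from 6737 CPM in pigment-dominant barcodes to 165, 60.7 and 32.2 CPM.

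The immune-dominant members of PEP-WT were mostly in the macrophage gate, 153 of 183, with 29 in no gate and 1 among neutrophils. In PEP-619WW 11 of 20 were in the macrophage gate, 2 in the dendritic gate, 1 in the T and NK gate and 6 in none. C1qa was at 2816 CPM in the PEP-WT immune-dominant members and 115 CPM in the pigment-dominant PEP-WT barcodes, and in PEP-619WW it was detected in 11 of the 20 immune-dominant members, but Ptprc, C1qa and Lyz2 both split the members and make the macrophage gate, so the gate counts and the C1qa levels follow from the rule. Against run 2 macrophages, 119 of 10341 genes with at least 100 UMIs (1.15%) were at least 2-fold higher in immune-dominant members of both libraries together, and 490 (4.74%) at least 2-fold lower. For the pigment-dominant barcodes the same counts were 1907 (18.3%) and 2173 (20.9%) of 10421 genes. With a minimum of 30 UMIs they were 2611 and 2276, so which was larger turned with the minimum. In PEP-WT the macrophages held 28477944 UMIs and the pigment-dominant barcodes 1587080. A minimum of 100 UMIs therefore drops more readily the genes particular to pigment-dominant barcodes. The shares given beside the lists below are at 100 UMIs. Members were chosen from these data, so all these counts are a description with no test. Of the 203 immune-dominant members 183 were PEP-WT, against 3007 of the 4509 macrophages. The part of this mix of libraries in their counts was not tested. Within PEP-WT Cd74 was at 1438 CPM in immune-dominant members and 2209 CPM in macrophages, and within PEP-619WW at 6398 and 7271 CPM. PEP-WT supplied 91 of the 98 pigment-dominant barcodes in the values that follow, and every log2 ratio below is of summed CPM, pigment-dominant over macrophages. The macrophages pooled 3007 PEP-WT and 1502 PEP-619WW barcodes, so PEP-WT barcodes over PEP-WT macrophages are given too for named genes and lists where they lost a call or moved a value or count by over 1.5 times. Lists whose counts moved by less are given together below.

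The melanosome genes differed by kind. Of 27 genes of melanosome build and transport outside the rule, 23 had enough UMIs, and 9 were at least 2-fold higher and 2 at least 2-fold lower, beside 18.3 and 20.9% of all genes. The list's median over these 23 genes was 0.35 (0.31 within PEP-WT), beside 0.12 over all genes with enough UMIs, and it was 0.58 over the 26 genes with a value. The genes particular to pigment cells were far apart from macrophages. Tspan10 was at 151 against 0.468 CPM (log2 ratio 8.33, interval 7.66 to 9.09). Mlph, which links melanosomes to myosin, was at 80.6 against 0.689 CPM (6.87, 6.27 to 7.51). Rab38, which sorts tyrosinase and Tyrp1 to melanosomes, was at 193 against 3.0 CPM (6.0, 5.70 to 6.32).
Slc24a5 and Trpm1 were each at 306 CPM, against 5.91 and 7.16 CPM. Rab27a, the GTPase that recruits Mlph, was at 99.2 against 4.87 CPM (4.35). Other list members were nearer to macrophages or lower, among them Cd63 (0.61) and Myo5a (0.05), with Mfsd12 at -2.91 and Rab32 at -1.81. Gpnmb, which both lineages express, was at 1139 against 369 CPM (1.63). Oca2 and Gpr143, at 18.6 and 23.6 CPM, were under the 100 UMI minimum.

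**Figure D5:**
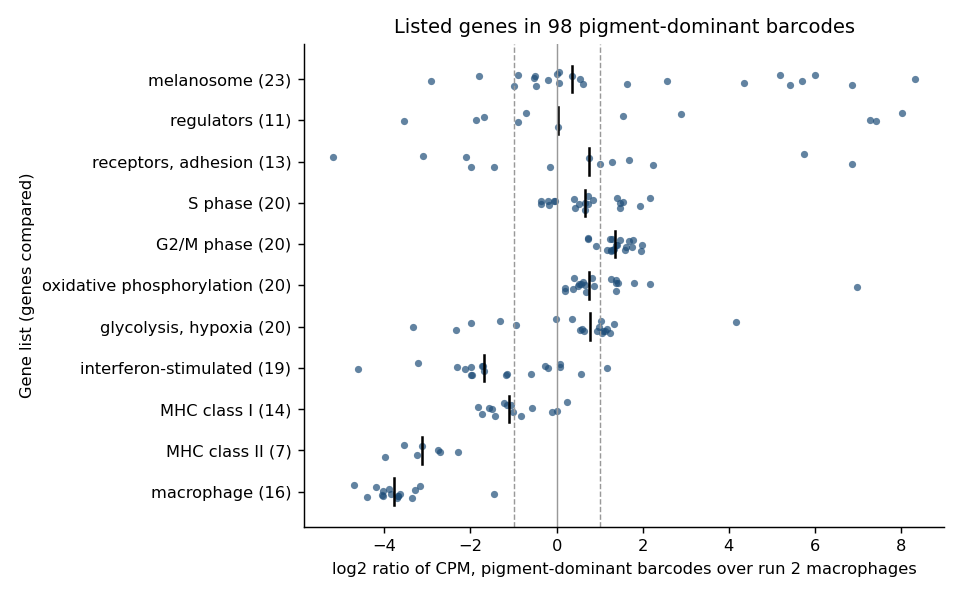
Each point is 1 gene with at least 100 UMIs, placed by its log2 ratio of CPM in pigment-dominant barcodes over run 2 macrophages; rows are gene lists, black bars their medians over these genes and dashed lines 2-fold. The G2/M list has its median at 1.36 and the class II list at -3.13.

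The transcription factors of the lineage were led by Sox10, Pax3 and Sox6. Of 16 regulators, 11 had enough UMIs, with 5 at least 2-fold higher and 3 at least 2-fold lower, beside 18.3 and 20.9% of all genes. In the 40 barcodes with all 6 genes Mitf had 0, 5 and 40 UMIs and was detected in 36. Sox10 had 0, 2 and 13 UMIs and was detected in 32, and Pax3 had 0, 4 and 24 and was detected in 36. The missed barcodes are few and the counts low, so absence in a single barcode was not detectable at this depth.
As levels, Mitf was at 285 against 38.7 CPM (log2 ratio 2.88, interval 2.73 to 3.03) and macrophages expressed it too. Sox10 was at 103 against 0.394 CPM (8.03) and Pax3 at 157 against 0.911 CPM (7.43). Sox6 was at 53.9 against 0.345 CPM (7.29). Zeb2, abundant in macrophages, was lower at 164 against 598 CPM (-1.86). Ctnnb1, the beta-catenin gene, was at 358 against 123 CPM (1.55). Zeb1 was at 1.24 against 3.99 CPM (-1.69), Irf4 at 0.620 against 7.26 CPM (-3.55), and Lef1 had 0 UMIs. Neither Zeb1 nor Irf4 had a UMI in a PEP-WT barcode, and within PEP-WT 5 regulators were higher and 2 lower.

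Surface receptors ran both ways. Of 17 receptor and adhesion genes, 13 had enough UMIs, with 6 at least 2-fold higher and 5 lower (5 and 4 within PEP-WT), beside 18.3 and 20.9% of all genes. Met, the receptor for hepatocyte growth factor, was at 405 against 7.61 CPM (5.74) and was detected in 37 of the 40 barcodes. Mc1r, the melanocortin receptor that switches melanocytes toward dark pigment, was at 89.3 against 0.763 CPM (6.87). Kit and Ednrb, receptors on which developing melanoblasts depend, were scarce. Kit had 5 UMIs over the 98 barcodes and Ednrb 4, at 2.48 against 90.6 CPM in macrophages (-5.19). Cdh1, encoding the E-cadherin that holds melanocytes to keratinocytes, had 0 UMIs, against 5.12 CPM in macrophages. With 0 UMIs placed at 3 counts its ratio was bounded at -1.46. Within PEP-WT the bound was -0.36, so a 2-fold difference was not shown there.

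Neural crest and invasive-state genes were split. Among 15 neural crest and Schwann genes, 5 had enough UMIs, 3 were at least 2-fold higher and 1 lower, beside the same 18.3 and 20.9% of all genes, and 5 of the 15 were at 0. S100b, a calcium-binding protein of glia and melanocytic cells, was at 122 against 1.23 CPM (6.63) and was found in 35 of the 40 barcodes. Fabp7 was at 36.6 against 4.31 CPM (3.09). Of 16 genes of the invasive, dedifferentiated state, 5 had enough UMIs, with 0 higher and 4 lower, beside 18.3 and 20.9% of all genes. The list's median over the 10 genes with a value was 1.91, against -3.24 over the 5, so its sign turned with the minimum. Axl was at 13.0 against 55.6 CPM (-2.09) and Thbs1 at 12.4 against 431 CPM (-5.12, and -6.42 within PEP-WT). Members under the minimum were higher, among them Tead1, at 43.4 against 0.369 CPM (6.88) on 70 UMIs in 32 barcodes, and Sox9, at 19.2 against 0.148 CPM (7.02). Ccn1 was at 16.1 against 0.0492 CPM and Loxl2 at 14.3 against 0.861 CPM. Ngfr, Wnt5a, Tnc and Egfr had 0 UMIs.

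Many genes outside the lists were far higher than in macrophages. The 30 genes with the highest ratios and the same direction in both libraries were headed by Sparc, Chsy3, Ptgds, Tinagl1, Serpinh1 and Aebp1. In PEP-619WW that direction rested on 1 to 3 UMIs for each gene, and without it Sparcl1, Gpr37, Epha3 and Car14, named after their values were seen, stood above Sparc. Sparc, a collagen-binding matrix glycoprotein, was at 656 against 1.92 CPM (log2 ratio 8.42, interval 8.08 to 8.77) and had 0, 22 and 62 UMIs in the 40 barcodes. Ptgds, the prostaglandin D synthase, was at 1691 against 5.22 CPM (8.34, 8.14 to 8.55) and was detected in all 40, with 1, 60 and 182 UMIs. Serpinh1, the collagen chaperone, was at 417 against 1.58 CPM (8.05, 7.68 to 8.44).
Chsy3, which builds chondroitin sulfate, was at 124 against 0.369 CPM and Tinagl1, a basement membrane protein, at 201 against 0.665 CPM. Genes of other kinds followed. Syt4, a vesicle synaptotagmin, was at 782 against 4.58 CPM (7.42), Nedd4, a ubiquitin ligase, at 504 against 8.17 CPM (5.95) and Chchd10, a mitochondrial protein, at 1242 against 36.9 CPM (5.07). Ldhb, a lactate dehydrogenase subunit, was at 378 against 6.89 CPM (5.78). In the PEP-WT library alone, Sparcl1 had the highest ratio, at 121 against 0.176 CPM (9.43), followed by Gpr37, at 66.8 against 0.176 CPM (8.57), and both were named after their values were seen.

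The lowest ratios belonged to genes of several blood cells. The 15 genes with the lowest ratios and the same direction in both libraries had 1 to 8 UMIs each over all 98 barcodes. In PEP-619WW 14 of them had 0 UMIs, which at its depth carries little direction, and for 9 no ratio could be bounded. Ccr2, the chemokine receptor of inflammatory monocytes, was at 4.34 against 391 CPM (-6.50, interval -7.81 to -5.45), and at -5.20 within PEP-WT. Retnla, a marker of alternative activation, was at 4.96 against 379 CPM (-6.25), and at -5.37 within PEP-WT. Vcan was at 0.620 against 114 CPM (-7.52), on 1 UMI, and at -6.79 within PEP-WT. Hba-a1 of red cells and Ighm of B cells were among the 15 as well. Arg1, another gene of alternative activation, was at 20.8 CPM in PEP-WT pigment-dominant barcodes against 982 CPM in PEP-WT macrophages, with UMIs in 21 of the 91, and was named after its values were seen.

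Most G2/M genes were higher than in macrophages, and S phase genes were so only in part. All 20 G2/M genes had enough UMIs, and 17 were at least 2-fold higher and 0 lower, beside 18.3 and 20.9% of all genes, with a list median of 1.36. Within PEP-WT 12 were at least 2-fold higher and 0 lower, with a median of 1.05. Ube2c, of the mitotic ubiquitin ligase machinery, was at 311 against 91.2 CPM (1.77) and Cenpf, a kinetochore protein, at 217 against 54.9 CPM (1.98). Top2a was at 272 against 114 CPM (1.26, and 0.97 within PEP-WT) and Mki67 at 215 against 130 CPM (0.72). Of 20 S phase genes 6 were at least 2-fold higher and 0 lower, with a median of 0.65. The immune-dominant members had medians of 0.65 for S phase and 0.69 for G2/M over the same macrophages, with both libraries pooled and no value taken within PEP-WT.
The barcodes were not alike in this. Across the 40 with all 6 genes the summed G2/M list ran from 0 to 10838 CPM with a median of 1458, and 24 were over 1000 CPM. Mki67 was detected in 26 and 5 barcodes held 55.3% of its UMIs. The 5 deepest of the 40 barcodes held 27.4% of all their UMIs.

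Energy metabolism genes were higher in part. Among 20 oxidative phosphorylation genes, 8 were at least 2-fold higher and 0 lower, with a median of 0.75, beside 18.3 and 20.9% of all genes and a median of 0.12. Ndufa4 was at 2566 against 574 CPM (2.16). Ppargc1a, the coactivator of mitochondrial biogenesis, was at 168 against 1.33 CPM (6.98) and was found in 35 of the 40 barcodes. Of 20 glycolysis and hypoxia genes 8 were higher and 4 lower, with a median of 0.79, and the count lower was near the share over all genes. Gapdh was at 4792 against 2342 CPM (1.03, and 0.99 within PEP-WT) and Car9, a carbonic anhydrase induced by hypoxia, at 143 against 7.93 CPM (4.18). Other hypoxia targets were lower, with Egln3 at 3.72 against 37.4 CPM (-3.33), Ndrg1 at 29.1 against 147 CPM (-2.33) and Slc2a1 at 47.7 against 119 CPM (-1.32). Car9 was patchy, with UMIs in 19 of the 40 barcodes and 65.5% of them in 5. Asns, the asparagine synthetase of the amino acid response, was at 129 against 5.39 CPM (4.58) and Trib3 of the same response at 39.7 against 3.45 CPM (3.53), although of 19 stress genes with enough UMIs 3 were higher and 8 lower, beside 18.3 and 20.9% of all genes.

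Antigen presentation genes were lower than in macrophages but present in the pigment-dominant PEP-WT barcodes. Of 14 MHC class I and processing genes 0 were at least 2-fold higher and 9 lower, beside 18.3 and 20.9% of all genes, with a median of -1.10. H2-K1, a class I heavy chain, was at 437 against 1025 CPM (-1.23, interval -1.34 to -1.12), and B2m, its light chain, at 697 against 1961 CPM (-1.49). All 7 class II genes were lower, with a median of -3.13, and Cd74, the invariant chain, was at 320 against 3722 CPM (-3.54). Over the 7 PEP-619WW barcodes summed, the sign against their own macrophages was opposite for H2-K1 (0.64), B2m (0.84) and the class II gene H2-Aa (0.50), but the deepest barcode held 47 of the 53 H2-K1 UMIs and 98 of the 109 B2m UMIs. The 18 macrophage genes summed to 2849 CPM in the pigment-dominant barcodes and 27614 CPM in macrophages. Both sets were made from UMIs of Ptprc, C1qa and Lyz2, so this contrast follows in part from the rule. The part of macrophage RNA in the antigen presentation values was not tested. In the 31 barcodes with all 6 genes and at most 10 UMIs of Ptprc, C1qa and Lyz2, a limit set after seeing the data, C1qa was at 15.4 CPM and Lyz2 at 58.6. There H2-K1 stood at 405 CPM (367 to 446), B2m at 577 CPM (532 to 625) and Cd74 at 198 CPM (172 to 227). The level of H2-K1 over all 98 barcodes, which include the 31, lay within its interval here, and those of B2m and Cd74 lay above theirs. These intervals do not cover the spread between barcodes. A single barcode held 148 of the 422 H2-K1 UMIs of the 31, and another held 141. The same barcodes held 58 and 96 of the 206 Cd74 UMIs.

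Some class I and interferon genes were concentrated in a few of the 40 barcodes, while others of the lists were found in most, such as Ifitm3 in 35 and Ifi27 in 33. Gbp2, an interferon-induced GTPase, had 132 UMIs, all in 5 barcodes. Splitting the 40 by a Gbp2 UMI, a choice made after its values were seen, put H2-K1 at 1412 CPM (1271 to 1565) in those 5 and 190 CPM (165 to 218) in the other 35. Psmb8, an immunoproteasome subunit, was at 791 CPM (687 to 908) and 39.3 CPM (28.5 to 53.0). Cxcl10, a T cell attracting chemokine, was at 1113 and 17.4 CPM. The pigment gene Dct was at 4609 CPM (4350 to 4879) in the 5 and 5346 CPM (5209 to 5484) in the 35. The 5 were deeper, with a median of 63802 against 26948 UMIs. Their summed C1qa was higher, at 175 against 88.7 CPM, and so was Cd74, at 931 against 122 CPM. H2-K1 was detected in 4 of the 5 and C1qa in 3. Of the 40, the barcodes with the most H2-K1 UMIs, 148, 141 and 65, had 1, 0 and 36 UMIs of C1qa. These 3 were among the 5, so H2-K1 there, with 364 UMIs in all, rested mainly on them. C1qa in the 5, with 45 UMIs in all, rested mainly on 1 barcode. Another of the 5, with 40643 UMIs, had 0 UMIs of H2-K1 and of Cd74. Barcodes of 1 library are not replicates, and the part of depth and of macrophage RNA in this split was not tested.
Over all pigment-dominant barcodes 12 of 19 interferon genes were at least 2-fold lower than in macrophages and 1 higher, beside 20.9 and 18.3% of all genes, with a median of -1.68. Within PEP-WT 10 were lower and 0 higher, with a median of -1.07. Ifi27 was the one higher, at 269 against 119 CPM (1.18), and at 0.93 within PEP-WT.

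Most genes for signals to immune cells were lower than in macrophages. Of 24 ligand genes 20 had enough UMIs, and 3 were at least 2-fold higher and 13 lower, with a median of -1.55, beside 18.3 and 20.9% of all genes. Mif, a cytokine made by many tumour and immune cells, was at 2318 against 842 CPM (1.46) and Nectin2, a ligand of NK and T cell receptors, at 12.4 against 2.51 CPM (2.30). Cd274, which encodes PD-L1, was at 19.2 against 63.7 CPM (-1.73). Of 24 growth-control genes 18 had enough UMIs, and 1 was higher and 5 lower (2 and 4 within PEP-WT), the latter near the 20.9% of all genes. Cdkn2a was at 0 UMIs, and its level in macrophages, 1.23 CPM, was too low for a difference to be detectable. Within PEP-WT the counts higher and lower were 7 and 4 for glycolysis and hypoxia, 0 and 8 for class I, 4 and 13 for the ligands and 3 and 7 for stress.

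Markers of other cell types were mostly low in the pigment-dominant barcodes, to different degrees. In the 7 PEP-619WW barcodes T and NK genes and B cell genes were at 0, and the macrophage list summed to 2261 against 24561 CPM in PEP-619WW macrophages. The dendritic list summed there to 1265 against 145 CPM, with a median of 0 CPM per barcode, and the monocyte and neutrophil list to 4101 against 4307 CPM. Of 13 T and NK genes 12 were at 0, and the list summed to 1.24 against 155 CPM in macrophages. Of 9 fibroblast genes 6 were at 0 and the list summed to 2.48 CPM. Of 8 keratinocyte and epithelial genes 7 were at 0. Of 8 hepatocyte genes 5 were at 0, albumin (Alb) among them, and the list summed to 91.1 against 139 CPM in macrophages, nearly all of it Trf. Of 7 endothelial genes 3 were at 0, and the list summed to 45.3 against 16.6 CPM, with Egfl7 at 38.4 against 1.01 CPM. Of 8 dendritic cell genes 3 were at 0 and the list summed to 36.0 against 82.8 CPM. Of 11 monocyte and neutrophil genes 1 was at 0, and the list summed to 216 against 2526 CPM, with 0, 0 and 22883 CPM per PEP-WT barcode (lowest, median and highest). The macrophage list had the highest sum, with none of its 18 genes at 0 and 387.6 to 27153 CPM per pigment-dominant PEP-WT barcode, around a median of 2728 CPM.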

How the data were processed

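Sorted live CD45+ cells of 2 genotypes were profiled in 2 runs of droplet 3′ single-cell RNA sequencing. The authors deposited 4 tables of raw UMI counts per gene and barcode, 32285 genes each. The submitters' processing notes name Cell Ranger 6.0.0, whereas the study's methods name another version. GENCODE symbols matched 32158 of the genes. No barcode was removed and doublets were not called. UMIs were summed over barcodes and scaled to CPM with python 3.11.15, numpy 2.4.6, scipy 1.17.1 and pandas 2.3.3. Genes with at least 100 UMIs over both sets were compared by the ratio of CPM at 2-fold, leaving out the 9 genes that chose and split the members, with exact 95% Poisson intervals. A set at 0 UMIs was placed at 3 counts. Ratios were tested on simulated totals without spread between barcodes, so that the simulation does not cover such spread. With 1 library per genotype and run no test between genotypes was made, and gene values of the 2 genotypes were not compared because only 7 PEP-619WW barcodes were pigment-dominant, under the minimum of 20. The members and gene lists were chosen with earlier results of these data known. Named genes were those of the lists, and the 30 highest and 15 lowest ratios with the same direction in both libraries; others are said to be chosen after their values were seen. Lists of sex-linked and nuclear RNA and Ptpn22 were added after seeing the data. Alternatives were other gene minimums, a barcode filter, thinning to 1000 UMIs, other splits, other scalings and single libraries.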

Additional observations from a re-analysis of the deposited data

Results flagged for a closer look

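Pigment genes gave a signal in run 1, which held no member. Its PEP-WT library had 5 Dct, 35 Pmel and 5 Mlana UMIs, and its PEP-619WW library had 37 Pmel UMIs, all above the limit of 3 counts set for a gene at 0. No run 1 barcode had more than 2 UMIs or more than 1 of the 6 genes. Pmel stood at 0.449 CPM in PEP-WT and 0.652 CPM in PEP-619WW.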

How the results depend on the processing

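Of 67 alternative values over 8 results, 26 moved, by over 1.5 times for counts and beyond its interval for shares and the median, and 41 did not. Members numbered 274 and 27 in PEP-WT and PEP-619WW, and with at least 2 genes 829 and 112, with at least 4 genes 108 and 7, after thinning to 1000 UMIs 54 and 1, and with all 6 genes 42 and 0. The pigment-dominant share of members, 32.6%, was 16.05% with at least 2 genes, 61.7% with 4, 95.2% with all 6 and 24.9% where pigment UMIs had to be 4 times the immune UMIs. The PEP-WT pigment-dominant share of barcodes, 0.954%, was 1.39% with 2 genes, 0.723% with 4, 0.419% with all 6, 0.765% after the barcode filter, 0.744% at 4 times and 0.136% with no immune UMI. The PEP-619WW share, 0.0635%, was 0.163% with 2 genes, 0.0181% with 4, 0 with all 6, 0.0363% after the barcode filter or at 4 times and 0.0272% with no immune UMI, the last 3 within its wide interval. Genes higher, 1907, numbered 1100 in PEP-619WW alone and 1039 where the interval had to pass 2-fold. Genes lower, 2173, numbered 628, 1260 and, with no immune UMI, 737. Fewer barcodes or UMIs enter several of these by construction, and otherwise the cause was not tested. The melanosome median of 0.58 ran from 0.22, as a mean over barcodes, to 1.79, with no immune UMI. Its interval of -0.20 to 5.18 comes from the spread among the 26 list genes and not from counting error. It is so wide that a value within it says little about the processing. The rule on all 6 genes, the 10-UMI limit and the interval rule were added after seeing the data. No paired analysis was possible because each genotype had 1 library per run and no test was made. The 7 PEP-619WW barcodes held 26092 UMIs in all, too few to detect scarce genes.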

Other observations

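Sex-linked genes and Ptpn22 were low in the pigment-dominant PEP-WT barcodes, and these genes were chosen after the data were seen. Xist, the RNA of the inactive X chromosome, was at 25.2 CPM (18.01 to 34.3) in the 91 pigment-dominant PEP-WT barcodes, 410 CPM in the immune-dominant ones and 213 CPM in PEP-WT macrophages. The sum of 4 Y-linked genes was at 7.56, 49.6 and 76.9 CPM in the same order, so that the PEP-WT pool of macrophages held RNA of both kinds. In the 31 barcodes with all 6 genes and at most 10 UMIs of Ptprc, C1qa and Lyz2, Xist and the Y-linked genes had 2 UMIs each, or 1.92 CPM (0.233 to 6.94). In PEP-619WW macrophages Xist had 1 UMI and the Y-linked genes were at 146 CPM, beside 153 CPM (41.8 to 393) in the 7 PEP-619WW pigment-dominant barcodes. The study's methods describe the pooled mice as sex matched, whereas Xist differed between the macrophages of the 2 libraries. Ptpn22 had 4 UMIs in the 91 barcodes, or 2.52 CPM, and 0 in the 31, with an exact interval that reached 3.54 CPM.

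Apoe, a lipid carrier of macrophages that melanocytic cells can also express, was at 1404 CPM (1333 to 1478) in the same 31 barcodes, against 4107 CPM in PEP-WT macrophages, while Tyrobp, a myeloid adaptor, was at 20.2 CPM.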
